A study of Mus musculus with 4 samples.

Results

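The rows examined here are the genes that the deposited count table lists under a symbol starting with Hist1h, Hist2h, Hist3h or Hist4h, the older names of the clustered histone genes. This rule found 9 of the 25239 rows, all of them Hist1h symbols: *Hist1h2al*, *Hist1h2an*, *Hist1h2ao*, *Hist1h2ap*, *Hist1h2bp*, *Hist1h2bq*, *Hist1h2br*, *Hist1h4m* and *Hist1h4n*. They are a small part of the clustered histone genes, since 60 more rows carry a current symbol (such as *H4c4*) for which RefSeq lists an older Hist name, which makes 69 clustered rows in all. The 9 rows hold 4 H2A, 3 H2B and 2 H4 genes and no H1 or H3 gene. RefSeq lists *Hist1h2al* as an older name of a transcribed pseudogene, *H2af-ps2*.

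Clustered histone genes encode the linker histone H1 and the core histones H2A, H2B, H3 and H4, around which DNA is wound into nucleosomes. They are transcribed mainly in S phase, when new DNA has to be packaged, and most of their mRNAs end in a stem-loop bound by SLBP in place of a poly(A) tail. Many nearly identical gene copies encode each core histone, so reads from one copy can align to another. In T cells, as elsewhere, their mRNAs are a mark of dividing cells, whereas replication-independent variants such as H3.3 are made throughout the cell cycle.

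The libraries are bulk RNA-seq of NKT cells (lymphocytes whose T cell receptor binds CD1d with a lipid) sorted from the small intestinal LP (SI-LP) of WT C57BL/6Jax mice, males and females aged 7 to 10 weeks, with no other genotype or treatment group. The mice received an anti-ARTC2 nanobody shortly before tissues were taken, and the gate was TCRβ+ CD1d-tet-PBS57+ and negative for Zombie, B220, CD11b, CD11c and CD8. The 4 libraries form 1 condition and come from a first experiment (replicates 3 and 4) and a second (replicates 1 and 2), and the labels do not say whether a library is 1 mouse or a pool. The paper names the Nugen Ovation ultralow kit for libraries of LP NKT cells. How far these libraries recover mRNA without a poly(A) tail was not tested, so a low count need not be low expression. Total counts on genes ran from 3882803 (replicate 4) to 8732858 (replicate 2), of which the ribosomal RNA precursor *Rn45s* took between 7.36% and 28.1%. All 9 T cell markers (such as *Cd3e* and *Thy1*) had counts in every library, at 0.175% to 0.458% of its counts.

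The start regions shown here are those of the H4 pair *Hist1h4m* and *Hist1h4n*, which are nearly the same, and of the H2B genes *Hist1h2bp*, which differs from its relatives, and *Hist1h2bq*, which is the same as *Hist1h2br*. Each window below runs from 250 bases before to 50 bases after the RefSeq start on GRCm38.p6, written 5′ to 3′ on the gene's strand. Capitals mark TATAAA, the TATA box core, and CCAAT, the core of the CCAAT box, on this strand or the other, where they read TTTATA and ATTGG. The windows lie at chr13:21811496-21811795 (+) for *Hist1h4m* (RefSeq *H4c17*), chr13:21832148-21832447 (−) for *Hist1h4n* (*H4c18*), chr13:21787238-21787537 (+) for *Hist1h2bp* (*H2bc22*) and chr13:21810150-21810449 (−) for *Hist1h2bq* (*H2bc23*).
Hist1h4m: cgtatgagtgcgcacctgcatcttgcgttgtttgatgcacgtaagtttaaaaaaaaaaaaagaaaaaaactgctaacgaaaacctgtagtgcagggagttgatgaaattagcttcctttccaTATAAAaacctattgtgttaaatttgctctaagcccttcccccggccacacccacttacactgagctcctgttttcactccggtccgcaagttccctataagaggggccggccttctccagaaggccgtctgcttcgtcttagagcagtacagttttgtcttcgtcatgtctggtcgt
Hist1h4n: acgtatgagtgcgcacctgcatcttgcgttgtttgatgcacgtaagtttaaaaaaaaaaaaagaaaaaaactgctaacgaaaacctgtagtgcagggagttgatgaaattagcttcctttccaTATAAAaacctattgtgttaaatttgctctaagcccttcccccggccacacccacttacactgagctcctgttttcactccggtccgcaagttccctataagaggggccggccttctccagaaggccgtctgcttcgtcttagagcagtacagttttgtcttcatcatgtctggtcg
Hist1h2bp: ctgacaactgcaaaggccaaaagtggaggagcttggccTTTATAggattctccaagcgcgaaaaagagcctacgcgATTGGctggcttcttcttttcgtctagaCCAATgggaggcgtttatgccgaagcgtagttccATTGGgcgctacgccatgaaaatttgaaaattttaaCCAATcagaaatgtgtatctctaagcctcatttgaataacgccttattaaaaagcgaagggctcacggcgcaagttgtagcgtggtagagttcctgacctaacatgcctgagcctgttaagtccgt
Hist1h2bq: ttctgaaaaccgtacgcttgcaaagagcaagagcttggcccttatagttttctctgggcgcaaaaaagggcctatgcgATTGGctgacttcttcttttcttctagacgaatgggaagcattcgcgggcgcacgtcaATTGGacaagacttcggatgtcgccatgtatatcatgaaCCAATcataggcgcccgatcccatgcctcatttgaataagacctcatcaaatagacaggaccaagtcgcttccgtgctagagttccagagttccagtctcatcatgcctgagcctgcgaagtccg
The windows of *Hist1h4m* and *Hist1h4n* were offset by 1 base and matched at 298 of 299 aligned positions. Their 1 difference was G286A, counted from 1 at the 5′ end of the *Hist1h4m* window, with the *Hist1h4m* base first, and it lies 35 bases after the start. In both, the only capitals are a TATAAA, at −128 in *Hist1h4m* and −127 in *Hist1h4n*. The window of *Hist1h2br* (named *H4bc24* in the RefSeq table) was the same as that of *Hist1h2bq* at all 300 bases. The H2B windows of *Hist1h2bp* and *Hist1h2bq* were less alike, with 199 of 288 aligned positions identical. *Hist1h2an* and *Hist1h2bp* are transcribed away from each other from 1 shared region, and 261 bases of their windows are the same stretch read on opposite strands.

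Across the 8 different genes behind these rows that had a window, TATAAA occurred on either strand in 4 (50%), against 56.4% of 55 windows of the other clustered rows and 13.6% of 32851 windows of all genes. CCAAT occurred in 6 (75%), against 87.3% and 37.4%. ATTTGCAT, the octamer bound by Oct factors, occurred in 0 of 8, against 25.5% and 1.74%, and AAACACA, the H1 box of linker histone genes, none of which is among these rows, in 0 of 8, against 16.4% and 7.18%. The 8 windows are not all separate stretches, and these percentages count copies apart. The TATAAA of *Hist1h4m* and *Hist1h4n* lies in nearly identical windows. That of *Hist1h2bp*, at −212, is the TATAAA of *Hist1h2an*, at −33, read on the other strand. The CCAAT matches of *Hist1h2bp* and *Hist1h2an* are also the same bases, and *Hist1h2bq* and *Hist1h2br* have identical windows. The window of *H2ac23* (behind *Hist1h2ao* and *Hist1h2ap*) overlaps that of *Hist1h2bq* on the other strand. That of *H2ac24* (also behind *Hist1h2ap*) overlaps the window of *Hist1h2br* in the same way. The CCAAT matches in these overlaps are again the same bases, so the windows with CCAAT are not separate cases. These are matches of letters in 300 bases and not sites at which a factor was measured.

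Of the 9 rows, 8 lie within 50.8 kb of chromosome 13, at chr13:21786774-21837530, and *Hist1h2al* lies 29.4 Mb further along, at chr13:51200084-51203066 (−), outside the cluster. Within the 50.8 kb there are 2 arms of 5739 bases that mirror each other, at chr13:21806412-21812150 and chr13:21831792-21837530, separated by 19.6 kb. *Hist1h4m* (chr13:21811746-21812150, + strand, 405 bases) closes the first arm and *Hist1h4n* (chr13:21831792-21832197, − strand, 406 bases) opens the second, so that they point towards each other. In contrast, *Hist1h2bq*, *Hist1h2br*, *Hist1h2ao* and *Hist1h2ap* each have exon records in both arms, on opposite strands. *Hist1h2bq* and *Hist1h2br* list the same 4350 exonic bases, so neither has a base of its own. All 904 bases of *Hist1h2ap* lie within *Hist1h2ao*, which has 200 further bases.

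**Figure D1:**
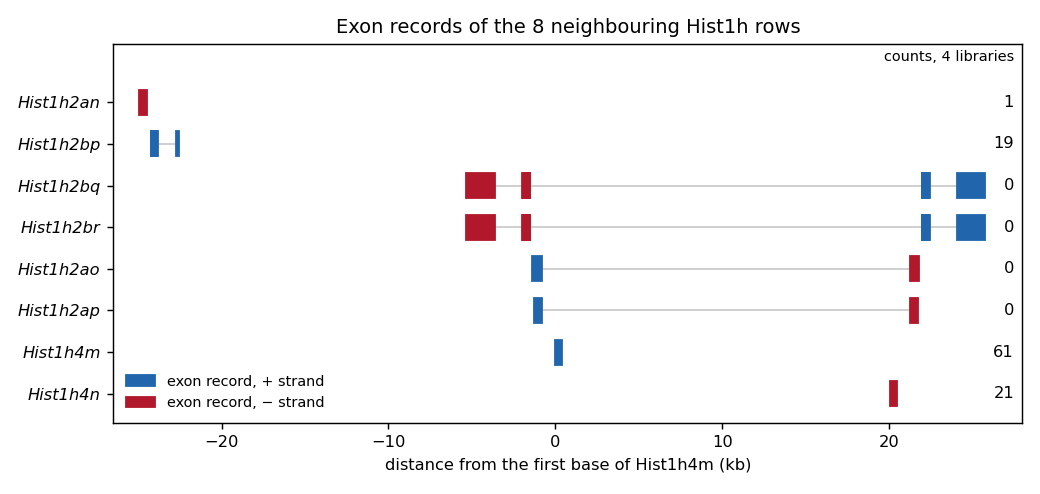
Exon records of the 8 neighbouring Hist1h rows (boxes, blue for the + and red for the − strand), by distance in kb from the first base of *Hist1h4m*; grey lines join the records of a row, and the right column gives its counts summed over the 4 libraries. The 4 rows with records in both arms have 0 counts, and the 4 rows with records in one place have 61, 21, 19 and 1.

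The counting command in the table's header has no option that lets a read pair count for more than 1 gene, so pairs on exonic bases of 2 rows are left unassigned. All 4 rows that share exonic bases with another row were listed at 0 in all 4 libraries, and of the 5 rows that share none, 4 had counts and *Hist1h2al* had 0. The same held among the 60 other clustered rows, where the 4 rows with shared exonic bases were listed at 0 and 52 of the 56 without had counts. A value of 0 for *Hist1h2ao*, *Hist1h2ap*, *Hist1h2bq* and *Hist1h2br* is therefore no measure of their expression. A count of 0 for *Hist1h2al*, which shares no exonic base, allows up to 3 counts in a library, or between 0.287 and 0.753 CPM (counts relative to library size, with TMM factors).

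**Figure D2:**
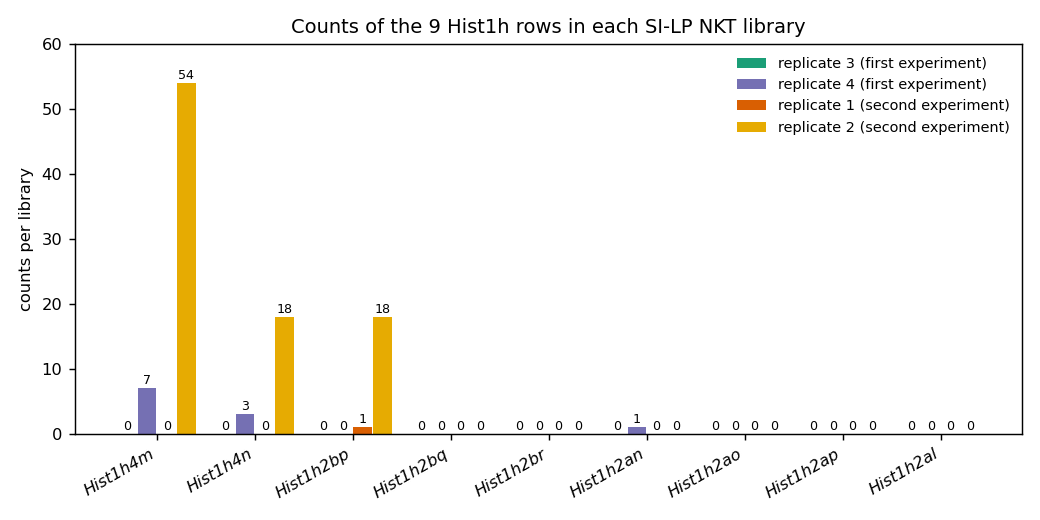
Counts (vertical axis) of each of the 9 Hist1h rows in the 4 SI-LP NKT libraries, 1 bar per library with its count printed above. *Hist1h4m* reaches 54 counts in replicate 2 and 7 in replicate 4, and 5 rows are at 0 throughout.

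*Hist1h4m* and *Hist1h4n*, which encode the core histone H4, were the members with the most counts. *Hist1h4m* had 0 counts in replicate 3, 7 in replicate 4, 0 in replicate 1 and 54 in replicate 2. *Hist1h4n* had 0, 3, 0 and 18 counts in the same order. Both were thus seen in 1 library of each experiment, replicates 4 and 2, and in neither of the other libraries. In CPM, *Hist1h4m* stood at 1.76 in replicate 4 and 5.17 in replicate 2, with a mean of 1.73 ± 2.44 (SD, n = 4), and *Hist1h4n* at 0.753 and 1.72, with a mean of 0.619 ± 0.817 (SD, n = 4). For both, the SD between libraries exceeded the mean. In bulk libraries, fewer expressing cells and less RNA per cell cannot be told apart.

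Against the floor of 3 counts in the library at 0, *Hist1h4m* stood 12.4-fold higher in replicate 2 than in replicate 1, on the CPM scale. The interval for the counts of the higher library was 9.35 to 16.2. In replicate 4 against replicate 3 the fold of *Hist1h4m* was 2.62 (1.05 to 5.40), with a lower limit near 1. *Hist1h4n* stood 4.15-fold higher in replicate 2 than the floor of replicate 1 (2.46 to 6.55). In replicates 3 and 4 *Hist1h4n* did not exceed the floor. Each of these folds sets 1 library against 1 other and has no replicate check. Intervals and floors take in the error of counting alone. PCR copies of 1 molecule are counted as separate reads, so the intervals may be too narrow even for that error.

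*Hist1h4m* took 54 of the 72 counts on this pair in replicate 2, or 75% (95% Wilson interval 63.9% to 83.6%), and 7 of 10 in replicate 4, or 70% (39.7% to 89.2%). Over both libraries its counts were 2.90 times those of *Hist1h4n* (61 against 21, 95% exact interval 1.74 to 5.02). The transcripts of the pair, however, matched at 401 of 402 aligned bases, and the count table keeps the primary alignment of a read that aligns equally well in several places. The division of counts between them is therefore uncertain, and their sum (72 and 10 counts) does not depend on it.

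Among the 13 H4 rows, *Hist1h4m* ranked 8 and *Hist1h4n* 12 by mean TPM (a level per transcript length). *Hist1h4m* stood at 39.3 TPM in replicate 2, where 3 H4 rows were higher, and at 10.7 TPM in replicate 4, where 8 were higher. *H4c4*, the highest H4 row, stood at 142 to 1434 TPM. In replicate 2 the pair held 72 of 1026 counts on H4 rows, or 7.02% (5.61% to 8.75%), and in replicate 4 it held 10 of 1393, or 0.718% (0.390% to 1.32%). These intervals do not overlap, but they cover counting error only and set 1 library against 1 other, so no difference is drawn from them. Most read-length windows of each row occur in another gene, where the other row of the pair counts as such a gene. How many occur in H4 genes outside the pair was not computed. In replicates 1 and 3, 0 of 199 and 0 of 273 H4 counts fell on the pair, which allows shares of up to 1.51% and 1.10%. Other H4 rows also differed in which library they were highest in: *H4c12* was at 49.0 TPM in replicate 2 and 0 in replicate 4, and *H4c14* at 3.84 and 356 TPM.

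**Figure D3:**
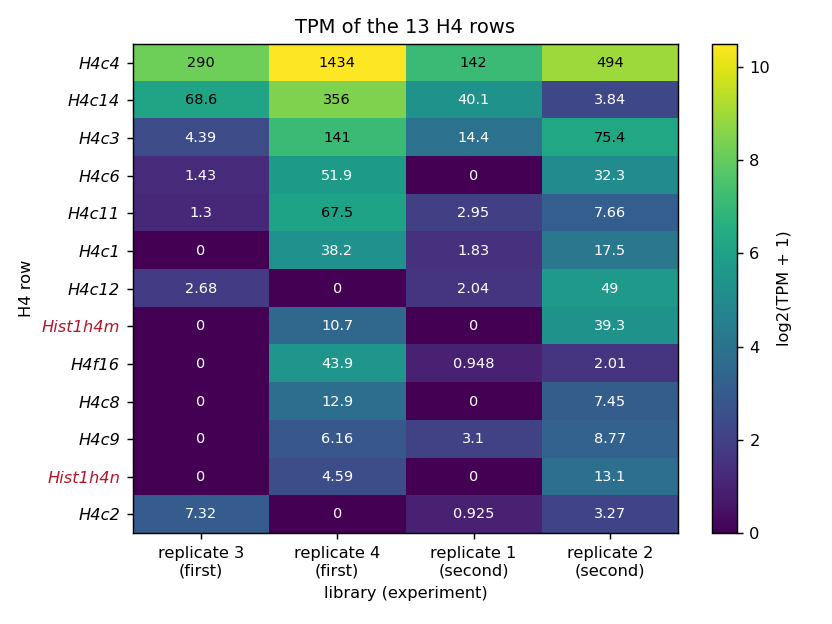
TPM of the 13 H4 rows (vertical axis, ordered by mean TPM, the 2 Hist1h rows in red) in the 4 libraries (horizontal axis), coloured by log2(TPM + 1) with the TPM printed in each cell. *Hist1h4m* and *Hist1h4n* are at 0 in replicates 3 and 1, where *H4c4* stands at 290 and 142.

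The H2B members were *Hist1h2bp*, *Hist1h2bq* and *Hist1h2br*, which encode the partner of H2A in the nucleosome. *Hist1h2bp* (chr13:21787488-21789213, + strand, 3 exon records over 646 bases) had 0 counts in replicates 3 and 4, 1 in replicate 1 and 18 in replicate 2, so nearly all of its counts came from 1 library. Its mean was 0.466 ± 0.841 CPM (SD, n = 4). The ratio of replicate 2 to replicate 1 was 12.4, with a 95% exact interval of 1.96 to 518 that comes from the single count in replicate 1. In replicate 4 it had 0 counts, which allows up to 3, and the H4 pair had 10, so no difference in pattern is drawn from this. It held 18 of the 951 counts on all H2B rows in replicate 2, or 1.89% (1.20% to 2.97%), 1 of 109 in replicate 1, or 0.917% (0.162% to 5.01%), 0 of 140 in replicate 3, which allows up to 2.14%, and 0 of 847 in replicate 4, which allows up to 0.354%. *Hist1h2bp* has a second exon record downstream of its first exon, and counts per gene do not show which form was sequenced.

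The H2A members were *Hist1h2al*, *Hist1h2an*, *Hist1h2ao* and *Hist1h2ap*. *Hist1h2an* (chr13:21786774-21787248, − strand, 475 bases) had 1 count in replicate 4 and 0 elsewhere, which is below the floor of 3 counts. Its transcript matched that of *Hist1h2ao* at 388 of 393 aligned bases and that of the pseudogene *Hist1h2al* at 311 of 339. *Hist1h2an* shares its start region with *Hist1h2bp*, and in replicate 2, where *Hist1h2bp* had 18 counts, it had 0. By mean TPM among all 69 clustered rows, *Hist1h4m* ranked 25, *Hist1h4n* 41, *Hist1h2bp* 46 and *Hist1h2an* 54. Their means were 12.5 ± 18.6, 4.41 ± 6.16, 2.21 ± 4.01 and 0.327 ± 0.654 TPM (SD, n = 4), and each SD exceeded its mean. These SDs measure the spread between libraries. The order of the genes within a library was not tested.

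How far a transcript can be told from others was measured as the share of its 101-base windows, 101 bases being the read length, that also occur in another gene's transcripts in the GENCODE annotation of GRCm39. The counts are of read pairs, and a pair can cover more bases than a single window. The share of pairs that cannot be placed was not computed and may be smaller. Transcripts were matched by RefSeq symbol. Of the 9 members, 8 were matched, and 6 of these 8 shared over 50% of their windows. *Hist1h2br* was not matched, because no GENCODE transcript carries the symbol *H4bc24*. The annotation does hold an *H2bc24*, which was not matched to it, so its share was not computed. The share was 88.1% for *Hist1h4m*, 80.6% for *Hist1h4n*, 83.3% for *Hist1h2an*, 92.6% for *Hist1h2ao*, 85.9% for *Hist1h2ap* and 95.3% for *Hist1h2bq*. *Hist1h2bp* and *Hist1h2al* shared 26.2% and 17.99%. The median was 84.6% over these 8 members and 33.0% over 56 other clustered rows, of which 22 shared over 50%. Those 22 rows had a median of 15 counts over the 4 libraries, and the 34 rows with smaller shares had a median of 77.5. The 22 include *H2ac18*, *H2ac19*, *H3c14* and *H3c15*, which share exonic bases with another row. Their counts of 0 are no measure of expression, so the lower median does not rest on shared windows alone.

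**Figure D4:**
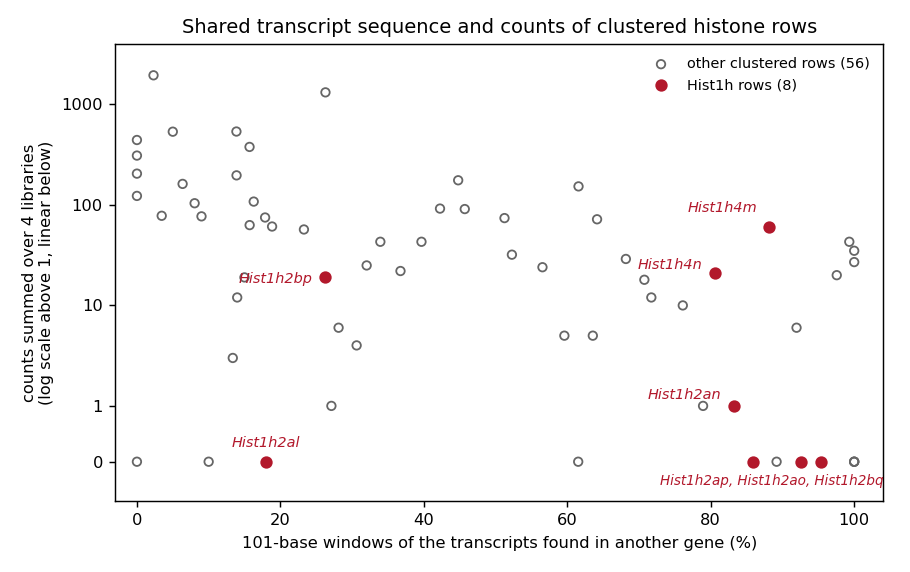
Counts summed over the 4 libraries (vertical axis, log scale above 1 and linear below) against the percentage of 101-base transcript windows found in another gene (horizontal axis), for 8 Hist1h rows (red) and 56 other clustered histone rows (open circles). *Hist1h4m* has 61 counts with 88.1% of its windows shared, and *Hist1h2al* 0 counts with 17.99% shared.

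Together the 9 rows had 0 counts in replicate 3, 11 in replicate 4, 1 in replicate 1 and 90 in replicate 2, or 102 of the 8091 counts on all 69 clustered rows. Their share of a library was 0.000283% in replicate 4 (0.000158% to 0.000507%) and 0.00103% in replicate 2 (0.000839% to 0.00127%). In replicate 1 it was 1.38e-05% (2.44e-06% to 7.83e-05%), and in replicate 3 a count of 0 allows up to 5.47e-05%. The second and first experiments had means of 0.000522% and 0.000142%, and an exact two-sided permutation test over libraries gave p = 0.667, where the smallest p that 2 libraries against 2 allow is 0.333. The mean over libraries was 0.000332% ± 0.000484 (SD, n = 4) and fell to 9.90e-05% without replicate 2.

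The 60 other clustered rows took 0.0134%, 0.0966%, 0.00509% and 0.0359% of replicates 3, 4, 1 and 2. They were thus also higher in replicate 4 than in replicate 3 and in replicate 2 than in replicate 1, but highest in replicate 4, whereas the Hist1h rows were highest in replicate 2. Of all clustered counts, the Hist1h rows held 2.79% in replicate 2 (90 of 3228, 2.27% to 3.41%), 0.293% in replicate 4 (11 of 3760, 0.163% to 0.523%), 0.271% in replicate 1 (1 of 369, 0.0479% to 1.52%) and 0 of 734 in replicate 3, which allows up to 0.409%. The interval in replicate 2 lay above those of the other libraries, with the same limits.

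No member could enter the test of the second against the first experiment, since 0 of 9 reached 10 counts in at least 2 libraries. Of the 11689 genes that did, edgeR's quasi-likelihood test (Benjamini-Hochberg adjusted p under 0.05) called 0 (0%), with 248 at an unadjusted p under 0.05, and DESeq2 called 41 of them. With no filter on low counts, the 4 members with counts were tested, and 0 of 4 were called (0 at an unadjusted p under 0.05), against 60 of 16223 genes (0.370%). Their adjusted p by edgeR was 0.9997 each, and their unadjusted p ran from 0.270 (*Hist1h2bp*) to 0.769 (*Hist1h4n*). Of the other clustered rows, 26 were tested and 0 were called (0 at an unadjusted p under 0.05 by edgeR, 5 by DESeq2, of which 0 passed adjustment), with a median log2 difference, second minus first, of −2.36 against 0.03 over all genes. Leaving out a replicate also changed which of these rows passed the filter. The median was −5.42 over 16 rows without replicate 2 and −0.15 over 11 rows without replicate 4.

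Genes that act with clustered histones were examined in the same libraries. *Slbp*, whose product binds the stem-loop of these mRNAs, stood at 82.8, 53.7, 62.8 and 88.7 CPM in replicates 3, 4, 1 and 2, which is a narrower range than that of the members. Among 20 genes of histone mRNA transcription and 3′ end processing, 18 were tested between experiments and 0 were called by edgeR or DESeq2 (1 at an unadjusted p under 0.05 by each), and their median log2 CPM difference was −0.14 for replicate 4 minus 3 and 0.25 for replicate 2 minus 1. Of the replication-independent histones (12 genes, 9 tested), edgeR called 0 (1 at an unadjusted p under 0.05) and DESeq2 called 1, lower in the second experiment, and the list had medians of −0.15 and 0.51, led in TPM by *H2az1* and *H3f3a*. The list of histone chaperones and acetyltransferase (20 genes, 20 tested, 0 called and 0 at an unadjusted p under 0.05 by edgeR and by DESeq2) had medians of −0.19 and −0.24. Over all genes the medians were 0.08 and 0.13.

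Some but not all proliferation genes were higher in replicates 4 and 2. *Mki67*, a marker of cycling cells, stood at 29.2, 257, 58.3 and 388 CPM in replicates 3, 4, 1 and 2, so that replicates 4 and 2 were above the other pair. Over 14 genes of G2 and mitosis (14 tested, 0 called between experiments and 0 at an unadjusted p under 0.05 by edgeR and by DESeq2) the median log2 CPM difference was 3.70 for replicate 4 minus 3 and 2.38 for replicate 2 minus 1, and 10 of 14 were over 1 log2 unit higher in both, against 2225 of the 11689 genes tested. Over 23 genes of DNA replication in S phase (23 tested, with the same counts of 0) it was 1.28 and 2.34, and 13 of 23 were over 1 log2 unit higher in both. *Pcna*, the replication clamp and the S phase gene with the highest mean TPM, stood at 309 ± 44.7 TPM (SD, n = 4). The share of the library on the G2 and mitosis genes was 0.00503%, 0.0766%, 0.0157% and 0.0840% in replicates 3, 4, 1 and 2, and that on the S phase genes 0.0437%, 0.0909%, 0.0398% and 0.0896%.

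Markers of other cell types also differed between the libraries. The 21 epithelial markers took 0.0221% of replicate 3 and 3.01% of replicate 4, and 0.101% of replicate 1 and 1.01% of replicate 2, although the sort selected TCRβ+ cells. In replicates 4 and 2, where *Hist1h4m* and *Hist1h4n* had counts, 0 of the 21 epithelial markers were at 0, and in replicates 3 and 1 it was 3 and 2. T cell markers went the other way, with 0.458% of replicate 3 against 0.223% of replicate 4, and 0.437% of replicate 1 against 0.175% of replicate 2. The 6 plasma cell markers took 0.0235% and 0.0492% in the first experiment (replicates 3 and 4), and 0.666% and 0.849% in the second (replicates 1 and 2), where they exceeded the T cell markers. Between experiments edgeR called 0 of these 6 (3 at an unadjusted p under 0.05), and DESeq2 called 2, both higher in the second. The mast cell list was highest in replicate 2, at 2.01, 28.6, 1.39 and 62.9 CPM in replicates 3, 4, 1 and 2. These values rest mainly on *Kit*, with 9, 109, 6 and 657 counts, while *Fcer1a*, *Mcpt1*, *Mcpt2* and *Tpsb2* were at 0 in every library. The markers of B cells, myeloid cells, stromal and endothelial cells and erythroid cells each took at most 0.0194% of a library. The B cell list stood at 1.12, 0.753, 61.1 and 52.4 CPM in replicates 3, 4, 1 and 2. Of its 6 genes 2 were tested between experiments, and edgeR called 0 (2 at an unadjusted p under 0.05). DESeq2 called 1 of them, higher in the second experiment. The part of RNA from these cell types in the counts of the Hist1h rows was not tested. All 4 libraries hold epithelial marker counts, so no value of the Hist1h rows without them can be given.

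**Figure D5:**
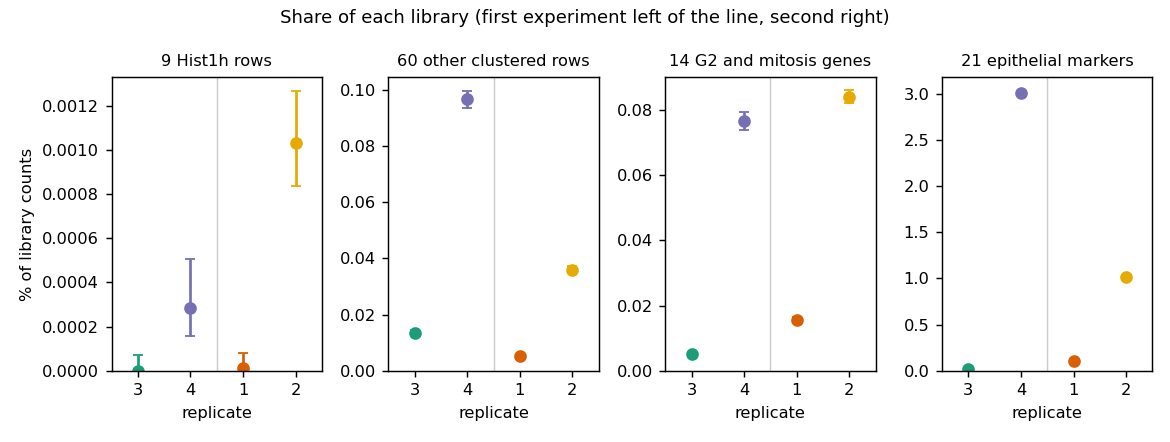
Share of each library's counts (percent, vertical axes that start at 0 and differ between panels) on the 9 Hist1h rows, the 60 other clustered histone rows, 14 genes of G2 and mitosis and 21 epithelial markers, by replicate, with 95% Wilson intervals. Replicates 4 and 2 lie above replicates 3 and 1 in each panel, and the Hist1h rows are highest in replicate 2 at 0.00103%.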

How the data were processed

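Bulk RNA-seq of 4 libraries of SI-LP NKT cells was analysed. The authors deposited raw counts of read pairs per gene, made per the file header with featureCounts 1.6.4 on exons of an mm10 RefSeq annotation, keeping primary alignments, with no strand option and no counting of a pair for several genes. The methods name HISAT2 and GRCm39, while the submitters' processing notes name Bowtie2, RSEM and GRCm38.p6; positions are those deposited, on GRCm38. Of the 6 library columns, 2 match no sample label and were not used. The deposited gene lengths served to compute TPM.

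CPM was computed with edgeR 4.0.16 (TMM factors), and genes reaching 10 counts in 2 or more libraries were compared between experiments with its quasi-likelihood test and Benjamini-Hochberg adjustment, which measures replicate error and not an effect. Replicates are those of the labels, and p-values measure the spread between these libraries only. Differences within an experiment are of log2 CPM with a prior count of 2. Shares have 95% Wilson intervals, and count ratios exact binomial (Clopper-Pearson) intervals. The floor is 3 counts per library. The test was checked on counts simulated with a fixed dispersion that was not estimated from these libraries. Its power at the spread of these libraries was not measured.

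Older and current symbols, start windows and pseudogenes come from RefSeq (GRCm38.p6). Alternatives were DESeq2 1.42.0, other scalings, filters, prior count and denominators, TPM in place of counts or CPM, and leaving out each replicate. The genes named are the members with counts, those at 0, *Mki67*, *Slbp* and genes leading the other lists; *H4c12*, *H4c14* and *H4c4* were named after their values were seen. The members and lists were chosen with earlier results of these data known. The tools were R 4.3.3, Python 3.11.15, pandas 2.3.3, numpy 2.4.6, scipy 1.17.1, Biopython 1.88 and matplotlib 3.10.9.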

Additional observations from a re-analysis of the deposited data

Results flagged for a closer look

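Of 6 results examined for a library far from the others (the CPM of 4 Hist1h rows and the library shares of the Hist1h rows and of the other clustered rows), 2 passed Dixon's 95% critical value for the gap to the nearest library as a part of the whole range. Chance would flag about 1 in 20 for normally distributed values. That rate does not hold for counts this near 0, since a row with counts in only 1 library has a part of 1 in any case. For *Hist1h2bp* CPM this part was 0.920, with replicate 2 at 1.72 CPM and the others between 0 and 0.139. For *Hist1h2an* CPM it was 1, and this rests on 1 count in replicate 4.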

How the results depend on the processing

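No paired analysis was possible because the libraries share 1 condition and each replicate number occurs once. The median differences that were planned over tested members have no value, as 0 members passed the filter under any scaling, and leaving out a replicate, requiring 10 counts in all 4 libraries or using DESeq2 also left 0 members to test. Without a filter, 0 of 4 were called. The order of members by mean TPM was the same by CPM and without replicate 1 or 3. Without replicate 4, *Hist1h2an* fell to 0 and tied with the 5 members at 0, and without replicate 2, *Hist1h2bp* fell from rank 3 to 4 and *Hist1h2an* moved from rank 4 to 3. The members' mean share of a library was 0.000372% without *Rn45s*, 0.000399% without the 10 most abundant genes and 0.000288% as summed CPM, and ran from 9.90e-05% to 0.000443% with a replicate left out. The folds of *Hist1h4m* over the floor were 12.4 to 14.9 (replicate 2 over 1) and 2.62 to 3.30 (replicate 4 over 3). These ranges are across TMM factors, median-of-ratios factors and library size alone, and leave out the error of counting. At library totals of 3882803 to 8732858 counts, 2 of the 4 members with counts had under 20 in all libraries together.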
